A study of Danio rerio with 4 samples.

Results

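The BCL2 family genes described here are bcl2l11, bcl2l10, bcl2a, bcl2l1, mcl1a, mcl1b, baxa and bbc3. They were taken by gene symbol, and 9 of the 27758 features measured in single larval zebrafish cells carry these 8 symbols. The symbol baxa belongs to a pair of features, ENSDARG00000020623 and ENSDARG00000089129, which were kept apart by identifier. How alike their sequences are, and whether that affected their counts, was not examined. The set was chosen by its values in these data: bcl2l11 had been noted as higher in progenitors, and bcl2l10 as higher in macrophages, after treatment at 3 days post fertilization (dpf). Treatment contrasts are therefore given as a description, and nothing is supported with them.

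The study has 4 libraries, 1 in each of 4 groups. Embryos pooled in wells were kept from 30 to 50 hours post fertilization in medium with the solvent DMSO or with SB431542 at 20 µM, which blocks the TGF-β receptor ALK5 (the ALK5i groups). Cells carrying a gata2b GFP reporter were sorted from whole larvae at 3 dpf, and cells carrying an mpeg1.1 mCherry reporter at 6 dpf, so that stage and sort cannot be told apart and the stages are only set side by side. Within a stage the treatment, the pool of embryos and the library cannot be told apart either, and with 1 library a group no test of treatment can be made. Each sort relied on 1 reporter, and the labels name no further allele.

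Proteins of the BCL2 family decide whether the outer mitochondrial membrane is opened during apoptosis. Anti-apoptotic members (bcl2a, bcl2l1, which encodes Bcl-xL, bcl2l10, known in zebrafish as nrz, and mcl1a and mcl1b, the zebrafish copies of MCL1) hold effector proteins such as Bax, encoded by baxa, in check. BH3-only members (bcl2l11, which encodes Bim, and bbc3, which encodes Puma, a target of p53) bind the anti-apoptotic proteins and so release the effectors. In blood, Mcl1 is known from mice to be needed for stem and progenitor cell survival, Bim for the removal of lymphoid and myeloid cells that lose cytokine support, and Puma for death after DNA damage.

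Throughout, paired values are given as DMSO and then ALK5i. The filters on depth, mitochondrial share and doublets left 31396 and 25543 cells at the earlier stage and 1980 and 1179 at the later one, with median depths of 2316, 1740, 5681 and 6452 unique molecular identifiers (UMIs). The 3 dpf libraries shared 248 barcodes, 0.721% and 0.878% of theirs, and no other pair shared more than 28. Cell classes were rebuilt here from marker genes, since the files used here name no cell type. The sort labelled as blood and immune cells also held other tissue: 11077 and 7096 cells at 3 dpf were pigment-like. Hematopoietic stem and progenitor cell-like (HSPC-like) cells numbered 2043 and 1541 at 3 dpf, and macrophage-like cells, microglia-like ones included, 10121 and 9708 at 3 dpf and 547 and 379 at 6 dpf. The macrophage marker list, 20 of whose 22 genes were seen, summed to 18212 and 18800 CPM (UMIs per 1000000 UMIs of the class) in macrophage-like cells at 3 dpf and to 19675 and 19892 CPM at 6 dpf. The 14 HSPC markers, of which 0 and 1 were at 0, summed to 1146 and 1071 CPM in HSPC-like cells.

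Levels below are CPM of a class within a library, and a difference is the log2 ratio of ALK5i over DMSO CPM. A 95% exact interval in brackets covers counting error of the UMIs only, not the variation between animals or libraries. A difference is called past 1.5-fold, which is 0.58 on the log2 scale, for features with a mean of at least 10 CPM and at least 20 UMIs over both libraries. CPM is not corrected for transcript length, so levels are compared between classes for the same gene and not between genes.

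The family was spread unevenly over the classes at 3 dpf, and the leading class differed between members. Among the anti-apoptotic members, bcl2l10 was highest in thrombocyte-like cells, at 403 CPM (323 to 496, 129 cells) in DMSO and 429 CPM (323 to 558, 87 cells) in ALK5i, intervals that overlap almost wholly. Cartilage-like cells came next in ALK5i, at 256 CPM with an interval of 186 to 344 that overlaps the thrombocyte-like one. Neutrophil-like cells were lowest, with 12.4 and 11.8 CPM, next to HSPC-like cells with 21.5 and 22.6 CPM. Of 16 classes macrophage-like cells held rank 10 in DMSO, at 44.2 CPM, and rank 8 in ALK5i, at 101 CPM.

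The level of bcl2a followed another order. It was highest in lymphoid-like cells, with 139 and 155 CPM. HSPC-like cells had 104 and 108 CPM and mesenchyme-like cells 101.5 and 111 CPM, and these 2 classes did not differ beyond their intervals in either library. Macrophage-like cells were low in bcl2a, at 12.4 and 20.5 CPM. For the Bcl-xL gene bcl2l1, HSPC-like cells had the lowest level of the 16 classes in DMSO, at 11.8 CPM on 100 UMIs. Unnamed blood-like (13.4 CPM), thrombocyte-like (13.7 CPM on 3 UMIs) and lymphoid-like cells (14.5 CPM) were close to it. Erythroid-like cells had 57.2 CPM, neutrophil-like 56.0 CPM and epidermis-like 75.9 CPM. In ALK5i endothelial-like cells (8.14 CPM, 1 UMI) and thrombocyte-like cells (0 UMIs) were below HSPC-like cells, at 11.9 CPM.

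The MCL1 copies mcl1a and mcl1b had like orders. In DMSO mcl1a was highest in epidermis-like cells (862 CPM), erythroid-like cells (798 CPM) and macrophage-like cells (780 CPM), of which erythroid- and macrophage-like cells did not differ beyond their intervals. In ALK5i the macrophage-like level, 1103 CPM, stood above all other classes. The HSPC-like class held 150 and 165 CPM of mcl1a and 52.3 and 59.7 CPM of mcl1b, and neuron-like cells the lowest mcl1a in both libraries, at 110 and 106 CPM. Erythroid-like cells parted the copies, with mcl1b at 50.6 CPM in DMSO, near the HSPC-like level, while their mcl1a was near the highest.

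The effector baxa (ENSDARG00000020623) ranged in DMSO from 28.8 CPM in erythroid-like cells to 131 CPM in macrophage-like cells, which did not differ from mesenchyme-like cells at 129 CPM beyond their intervals. The second baxa feature (ENSDARG00000089129) reached at most 6.46 CPM there and passed the count filter in 0 of the 16 classes.

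The BH3-only gene bcl2l11 was highest in endothelial-like cells, at 224 CPM (180 to 275, 127 cells) in DMSO and 138 CPM (80.6 to 221, 59 cells) in ALK5i. The ALK5i value rests on 17 UMIs. Epidermis-like cells at 129 CPM and mesenchyme-like cells at 124 CPM in ALK5i lie within its interval, so the rank is not settled there. In DMSO macrophage-like cells at 76.0 CPM and lymphoid-like cells at 76.2 CPM did not differ beyond their intervals. HSPC-like cells were lower, at 51.3 CPM, and neutrophil-like cells lowest, at 8.44 CPM. The Puma gene bbc3 was also highest in endothelial-like cells, at 54.6 and 65.1 CPM on 22 and 8 UMIs, followed by pigment-like cells at 30.7 and 35.1 CPM. The ALK5i rank rests on those 8 UMIs, and mesenchyme-like cells, at 34.2 CPM, were near the pigment-like level there. It was too low to pass the filter in HSPC-like cells, with 9.42 and 6.49 CPM, and in macrophage-like cells, with 6.50 and 5.57 CPM.

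**Figure D1:**
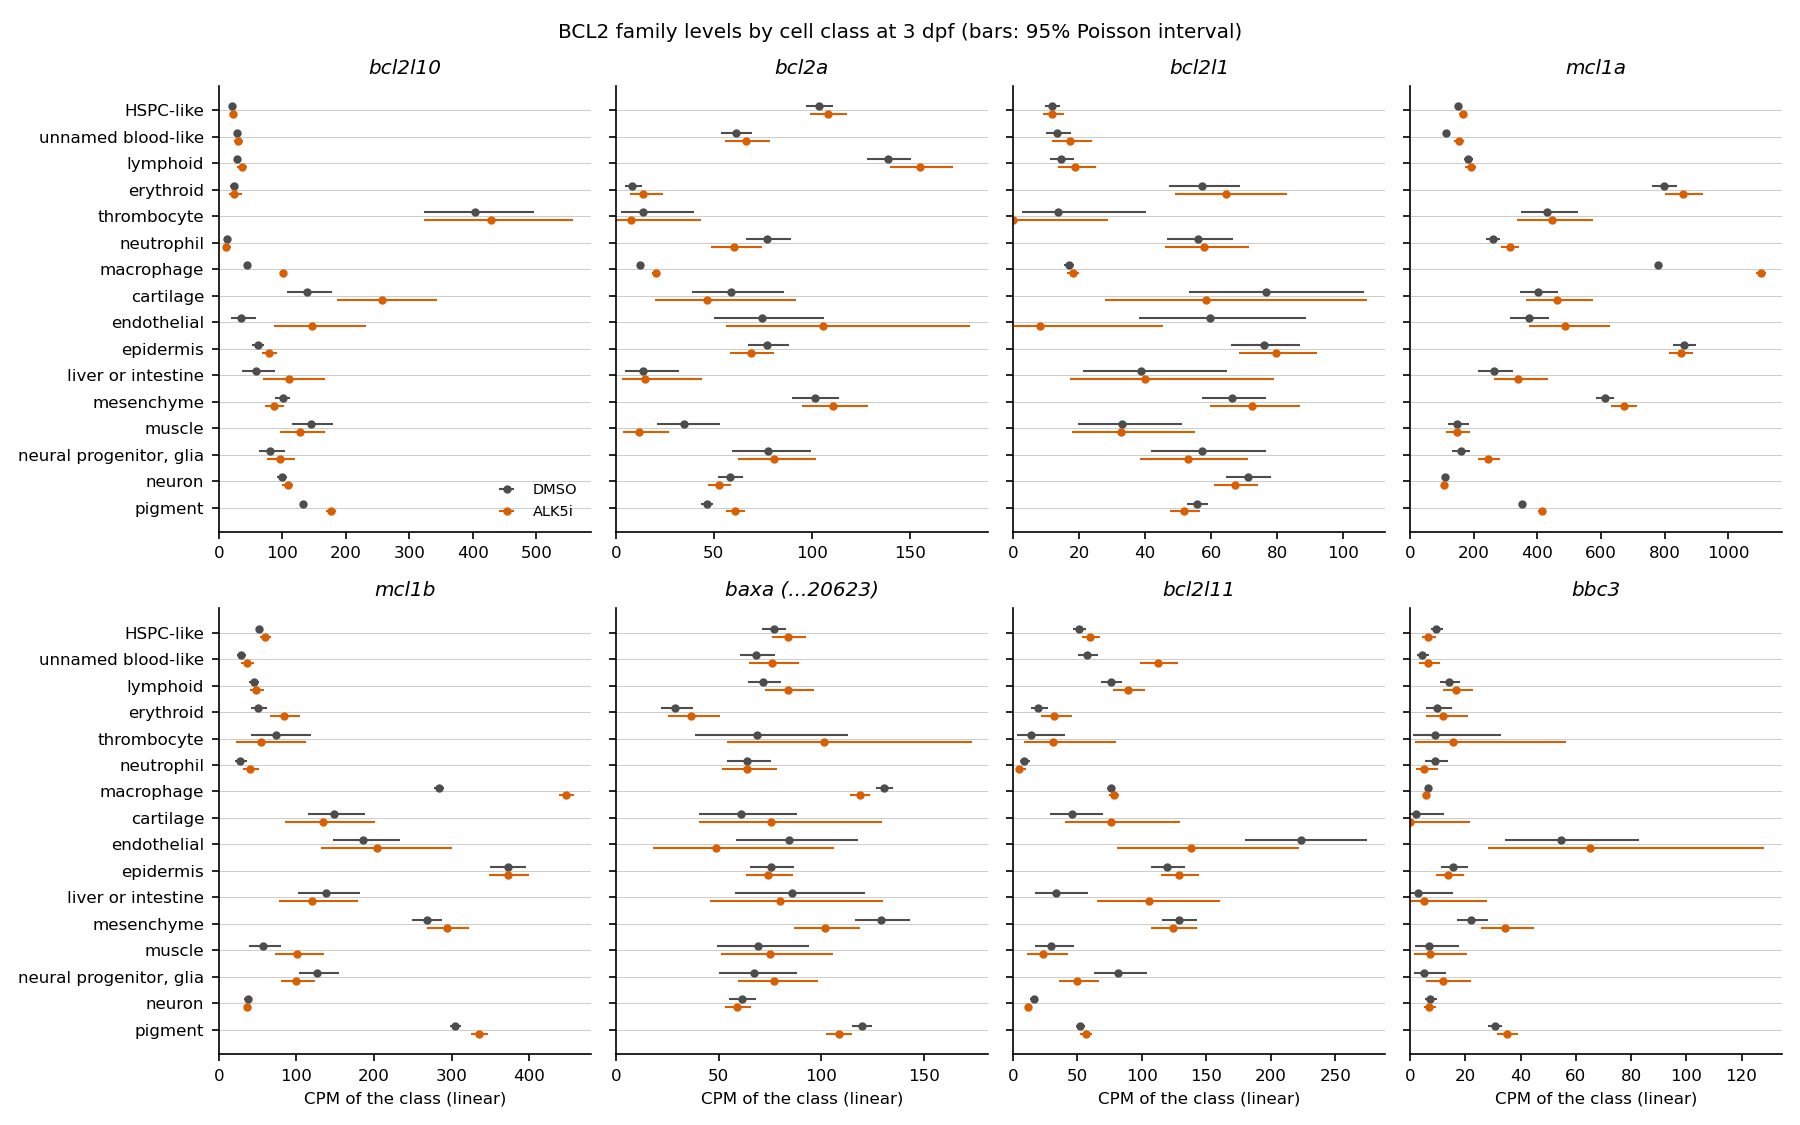
Level of 7 members and of the more abundant baxa feature in 16 cell classes at 3 dpf, in CPM on linear axes that differ between panels; dots are the 2 libraries and bars 95% exact Poisson intervals. The thrombocyte-like level of bcl2l10, 403 and 429 CPM, is the highest in both libraries, and the macrophage-like ALK5i values lie to the right of DMSO for bcl2l10, mcl1a and mcl1b.

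In HSPC-like cells at 3 dpf 7 of 9 features passed the count filter, and 0 of the 7 were past 1.5-fold, beside 2.56% of 8083 features. The members' median difference was 0.13, beside -0.03 for all features tested. All 7 were slightly higher in ALK5i, from 0.02 for bcl2l1 (-0.48 to 0.50) to 0.22 for bcl2l11. Only the intervals of bcl2l11 and of mcl1a, at 0.14 (0.01 to 0.27), left out 0, both narrowly. Those of bcl2l10, bcl2a, bcl2l1, mcl1b and baxa (ENSDARG00000020623) held 0. The share of all features higher in ALK5i is not given here, so the common direction is not read as a result about the members.

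The Bim gene bcl2l11, the member noted for progenitors, had 436 UMIs or 51.3 CPM in DMSO and 286 UMIs or 59.9 CPM in ALK5i HSPC-like cells, a difference of 0.22 (0.00 to 0.44). It was thus higher in the ALK5i library by less than 1.5-fold, with an interval that begins at 0. A bcl2l11 UMI was found in 16.2% and 12.8% of HSPC-like cells, at median depths of 4111 and 3049 UMIs. With each cell thinned to 1000 UMIs, which left out 48 and 49 shallower cells, it was 5.16% (4.23 to 6.23) and 5.29% (4.21 to 6.56). Neutrophil-like cells, the class lowest in bcl2l11, held it in 0.00% (up to 0.73) and 0.24% of thinned cells, at median depths before thinning of 4215.5 and 3245 UMIs.

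The difference in bcl2l11 was uneven over the progenitor clusters. In a cluster with the DNA synthesis gene rrm2 among its leading genes (B6, 1013 and 754 cells), bcl2l11 was at 45.5 and 63.4 CPM, a difference of 0.48 (0.17 to 0.78). In the cluster led by spi2, hlx1 and runx1 (B7, 720 and 558 cells) it was at 61.0 and 57.8 CPM, -0.08 (-0.47 to 0.31). In the cluster led by the mitotic genes aspm and ccnb1 (B15, 310 and 229 cells) it was at 52.4 and 53.1 CPM, 0.02 (-0.56 to 0.58). Of these 3 clusters only B6 had an interval above 0; in B6 and B15 HSPC and lymphoid markers tied over all cells and HSPC markers led among blood cells.

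The largest bcl2l11 difference among blood progenitor clusters lay outside the HSPC-like class, in a cluster led by drl, hdr, znfl2a and gata1b (B8, 741 and 527 cells). Its markers were 9 of the HSPC list and 8 of the erythroid list, and erythroid genes such as slc4a1a among its leading genes kept it unnamed. There bcl2l11 had 202 UMIs or 61.8 CPM in DMSO and 220 UMIs or 128 CPM in ALK5i, a difference of 1.05 (0.77 to 1.34), which is 2.08-fold (1.71 to 2.53). A UMI of bcl2l11 was seen in 149 of 741 cells and 148 of 527 cells, 20.1% and 28.1%, and in 7.21% (5.45 to 9.33) and 11.6% (8.98 to 14.8) after thinning, at median depths of 4188 and 3127 UMIs. No single cell held more than 6 of these UMIs.

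In B8 bcl2l11 was the 1 member of 7 tested past 1.5-fold, beside 8.12% of 7640 features. Beside it, bcl2l10 differed by -0.03 (-0.53 to 0.46), bcl2a by -0.02 (-0.39 to 0.33), mcl1a by 0.43 (0.19 to 0.66) and baxa (ENSDARG00000020623) by 0.16 (-0.15 to 0.48). In the same cluster the HSPC marker list summed to 2586 and 2699 CPM, the erythroid list to 2637 and 2050 CPM and the macrophage list to 332 and 172 CPM; the part of this in the bcl2l11 difference was not tested. In the named erythroid-like cells bcl2l11 was at 19.7 and 32.1 CPM, 0.70 (-0.03 to 1.43) on 39 and 30 UMIs, where 29.7% of features were past 1.5-fold and the median feature differed by 0.27.

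Which clusters are counted as progenitors therefore sets the bcl2l11 value. With every blood cluster in which HSPC markers came first or tied, B8 included, it was 53.2 and 75.7 CPM, 0.51 (0.34 to 0.68). With a gate on HSPC markers in each cell instead of clusters it was 0.67 (0.40 to 0.95) over 960 and 694 cells, past 1.5-fold. In all kept 3 dpf cells outside the named HSPC-like class, B8 included, bcl2l11 was at 63.9 and 67.2 CPM, 0.07 (0.01 to 0.14).

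Erythroid marker UMIs were lower in ALK5i, with summed levels of 377 and 175 CPM in HSPC-like cells and 424 and 217 CPM in macrophage-like cells; their part in the member differences was not tested. Of the dissociation stress list, 16 of 23 genes passed the filter in HSPC-like cells. The heat shock genes hsp70.3 and hsp70l were past 1.5-fold higher, beside 2.56% of all features in either direction. By their intervals 5 genes of the list were above 0 and 1 below. The list median was 0.22, beside -0.03 for all features, while the summed list was at 2931 and 2914 CPM. The part of this list in the member differences was not tested.

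**Figure D2:**
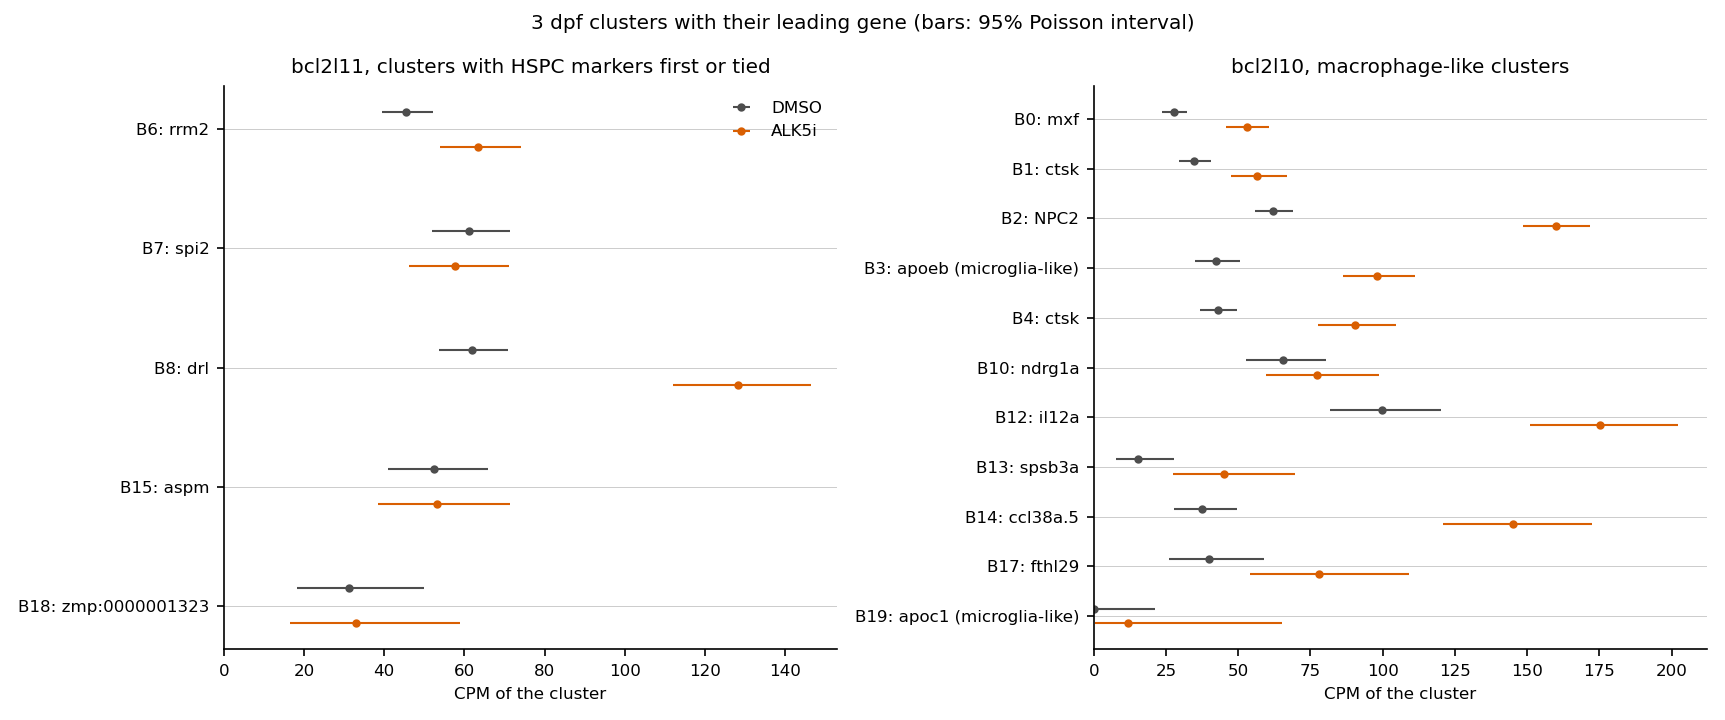
Level of bcl2l11 in the 5 blood clusters in which HSPC markers came first or tied (left) and of bcl2l10 in the 11 macrophage-like clusters (right) at 3 dpf, in CPM of the cluster on linear axes, with 95% exact Poisson intervals and the leading named gene of each cluster. For bcl2l11 cluster B8 parts the libraries, at 61.8 and 128 CPM; for bcl2l10 the ALK5i value is to the right in every cluster shown.

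In macrophage-like cells at 3 dpf, of 7 members tested, 3 (bcl2l10, bcl2a and mcl1b) were past 1.5-fold higher in ALK5i and 0 lower, beside 3.4% of 6676 features in either direction and 1.47% in the higher one. The median difference of the members was 0.50, beside -0.05 for all features. Since bcl2l10 was noted for this class and contrast when the set was chosen, its call was known in advance. The count and the median are therefore descriptions.

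The nrz gene bcl2l10 had 1259 UMIs or 44.2 CPM (41.8 to 46.8) in DMSO and 1949 UMIs or 101 CPM (97.0 to 106) in ALK5i, a difference of 1.2 (1.09 to 1.30). The intervals of the libraries do not overlap, but they cover counting error only, and the gene was chosen from this contrast. It was seen in 928 of 10121 cells (9.17%) and 1287 of 9708 cells (13.3%), although the median depth was lower in ALK5i, at 1839.5 against 2615 UMIs. After thinning the shares were 3.71% (3.35 to 4.11) and 7.55% (7.0 to 8.12), and in neutrophil-like cells, the class with the lowest level, 1.99% and 0.71%. Cells with 3 or more bcl2l10 UMIs numbered 66 in DMSO and 141 in ALK5i and held 21.5% and 29.7% of its UMIs, so most UMIs came from cells with 1 or 2.

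The bcl2l10 level was higher in ALK5i in 11 of 11 macrophage-like clusters, of which the smallest held 0 and 1 UMI. All clusters of a stage come from the same pair of libraries, so counts of clusters here and below are not repeats. In the 10 others the difference ran from 0.24 (-0.24 to 0.72) in the cluster led by ndrg1a and prdm1a (B10) to 1.95 (1.46 to 2.45) in the one led by ccl38a.5 and the mitotic gene kif20a (B14), where it was at 37.6 and 145 CPM. In B14 5 of 7 members tested were past 1.5-fold higher, beside 17.7% of features in either direction. The largest number of UMIs came from the cluster led by NPC2, tnfrsf9a and mt2 (B2), at 62.2 and 160 CPM, 1.36 (1.18 to 1.55). The cytokine cluster led by il12a, il6 and cxcl11.1 (B12) had the highest level in both libraries, at 99.6 and 175 CPM, 0.81 (0.47 to 1.17). Microglia-like clusters had 39.8 and 95.2 CPM, 1.26 (0.94 to 1.59). Between 5.71% and 23.8% of features were past 1.5-fold within single clusters.

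With the ALK5i levels weighted by each cluster's share of the class UMIs in DMSO the bcl2l10 difference was 1.1. Outside macrophage-like cells bcl2l10 was at 82.9 and 100 CPM, 0.27 (0.21 to 0.33). The difference in HSPC-like cells, 0.07 (-0.29 to 0.42), was within counting error, and pigment-like cells had 133 and 176 CPM, 0.40 (0.32 to 0.49).

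The MCL1 copies were both higher in ALK5i macrophage-like cells. The level of mcl1b was 283 and 448 CPM, 0.66 (0.62 to 0.70), and that of mcl1a 780 and 1103 CPM, 0.50 (0.47 to 0.53), the latter within 1.5-fold. Over the 11 clusters mcl1a ran narrowly from 0.38 in microglia-like B3 to 0.75 in B14, always higher. The spread of mcl1b was wider, from -0.28 (-1.94 to 1.16) on 15 and 6 UMIs in B19 and 0.05 (-0.21 to 0.31) in the ferritin- and hmox1a-led cluster B17 to 0.86 (0.72 to 1.0) in the ctsk-led cluster B1. Outside macrophage-like cells mcl1a differed by 0.11 (0.07 to 0.14) and mcl1b by 0.02 (-0.03 to 0.07).

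The third member past the fold, bcl2a, had 354 UMIs or 12.4 CPM in DMSO and 393 UMIs or 20.5 CPM in ALK5i, 0.72 (0.51 to 0.93). Its difference was in the macrophage-like clusters other than microglia, at 10.21 and 18.8 CPM, 0.88 (0.64 to 1.12), while microglia-like cells had the same level in both libraries, 31.4 and 31.4 CPM, -0.00 (-0.45 to 0.44); the difference between these differences was not tested. In the remaining anti-apoptotic member, bcl2l1, the levels were 16.8 and 18.1 CPM, 0.11 (-0.10 to 0.31). With a gate on macrophage markers in each cell bcl2a was at 0.40 (0.22 to 0.59) and no longer past 1.5-fold, with 5 CPM added to both levels it was at 0.55 and with doublet calls kept at 0.56, also within it.

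Of the death-promoting members, in macrophage-like cells baxa (ENSDARG00000020623) was at 131 and 119 CPM, -0.14 (-0.21 to -0.06), and in microglia-like cells at 209 and 167 CPM, -0.33 (-0.51 to -0.15), lower in ALK5i but within 1.5-fold. The level of bcl2l11 was 76.0 and 78.0 CPM, 0.04 (-0.06 to 0.13), with 5 of 11 clusters higher in ALK5i. The few bbc3 UMIs, 185 and 107, gave 6.50 and 5.57 CPM, -0.22 (-0.58 to 0.13). Beside these values the dissociation stress list summed to 8899 and 9853 CPM in macrophage-like cells, with 0 of 22 tested genes past 1.5-fold and 15 with an interval above 0; its part in the differences was not tested.

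**Figure D3:**
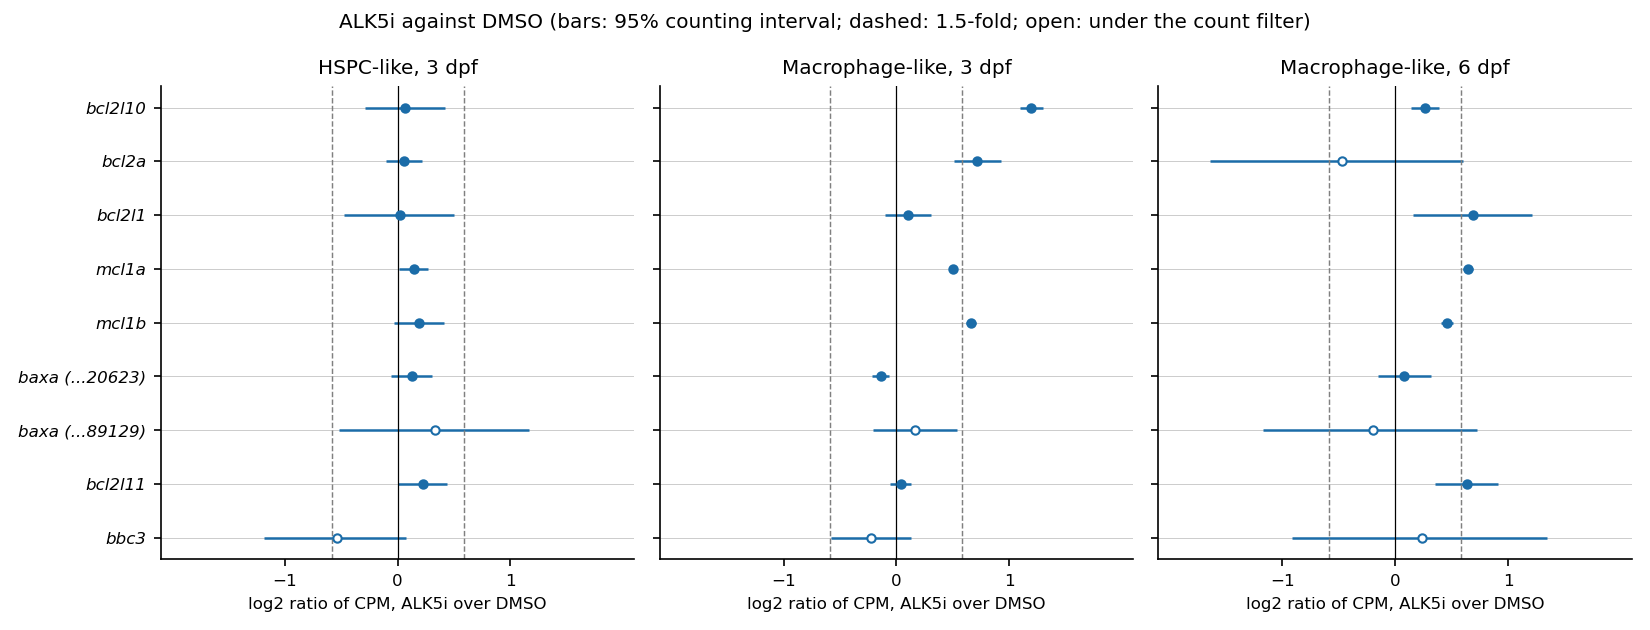
Log2 ratio of CPM, ALK5i over DMSO, for the 9 features in HSPC-like cells at 3 dpf and macrophage-like cells at 3 and 6 dpf; bars are 95% counting intervals, dashed lines 1.5-fold and open dots features under the count filter. At 3 dpf bcl2l10 (1.2), bcl2a (0.72) and mcl1b (0.66) lie past the dashed line in macrophage-like cells and 0 members do in HSPC-like cells.

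**Figure D4:**
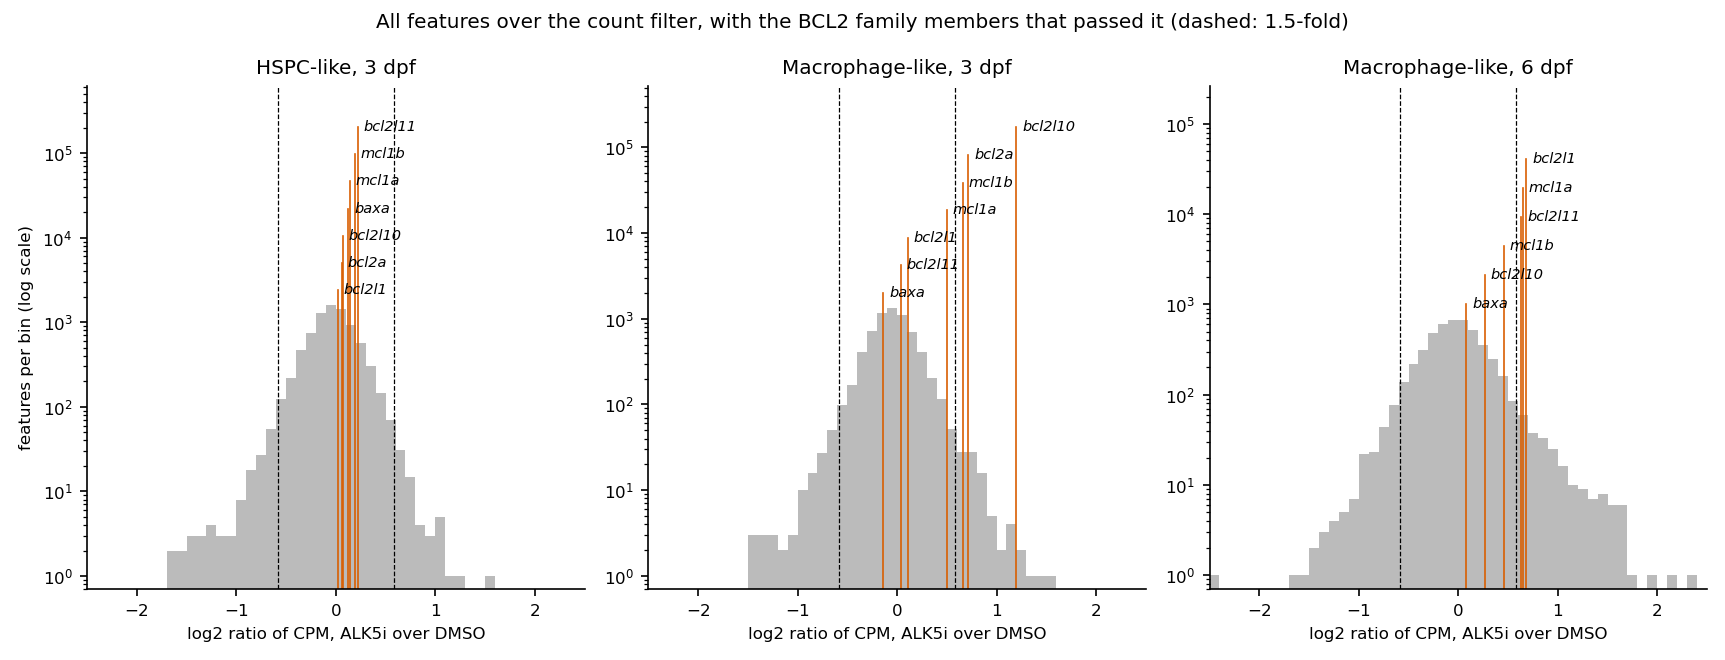
Number of features per 0.1 bin of the log2 ratio of CPM, ALK5i over DMSO, on a log scale, for all features over the count filter in 3 comparisons, with vertical lines at the members that passed it; line heights only stagger the names, and baxa is ENSDARG00000020623. In HSPC-like cells the members lie within the bulk of the features, between 0.02 and 0.22; in macrophage-like cells bcl2l10 at 3 dpf lies far in the right tail.

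The 6 dpf values are also a description, since the members were chosen with all 4 libraries in view. In macrophage-like cells, of 9 features 6 passed the filter and 3 of them (mcl1a, bcl2l11 and bcl2l1) were past 1.5-fold higher in ALK5i, 0 lower, beside 9.13% of 4895 features in either direction and 4.66% in the higher one. The members' median was 0.55, beside -0.03 for all features. These calls lay near the threshold: a gate on macrophage markers in each cell left 0 of the 3 past it, at 0.58 for bcl2l11, 0.52 for mcl1a and 0.38 for bcl2l1. With 5 CPM added to both levels 1 member, mcl1a, was past it.

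Of the anti-apoptotic members, mcl1a had 8510 UMIs or 1399 CPM in DMSO and 8157 UMIs or 2192 CPM in ALK5i, 0.65 (0.60 to 0.69). It was higher in ALK5i in 10 of 10 clusters, from 0.28 (0.15 to 0.41) in the gdpd3b- and cxcl19-led cluster B4, where its level was highest in both libraries, to 1.48 (1.02 to 1.95) in B13, a cluster of 7 and 4 cells. Its copy mcl1b was at 1095 and 1504 CPM, 0.46 (0.41 to 0.51), also higher in 10 of 10 clusters. Pooled cells outside the macrophage-like class differed in the same direction, mcl1a by 0.31 (0.28 to 0.35) and mcl1b by 0.32 (0.27 to 0.37). Small single classes went both ways for mcl1a. It ran from -0.99 (-1.57 to -0.45) in 35 and 7 pigment-like cells to 0.90 (0.73 to 1.06) in 63 and 24 unnamed blood-like cells. Of all features, 54.4% and 34.6% were past 1.5-fold in these. Outside macrophage-like cells, named classes with at least 50 cells in both libraries ran from 0.01 (-0.22 to 0.23) in neuron-like to 0.32 (0.26 to 0.37) in epidermis-like cells. In 83 and 46 neural progenitor- and glia-like cells, with 31.8% of features past 1.5-fold, mcl1a was at -0.61 (-0.85 to -0.38). Among classes over the filter mcl1b ran from -0.19 (-0.56 to 0.17) there to 0.90 (0.25 to 1.58) in 14 and 17 neutrophil-like cells. The level of bcl2l1 was 10.4 and 16.7 CPM on 63 and 62 UMIs, 0.69 (0.16 to 1.21), and bcl2a had 25 and 11 UMIs, under the filter.

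For bcl2l10 the macrophage-like class at 6 dpf was at 216 and 260 CPM, 0.26 (0.14 to 0.39), within 1.5-fold, and 54.7% and 54.6% of cells had a UMI at median depths of 10994 and 9144 UMIs. After thinning these shares were 14.6% (11.7 to 18.0) and 18.0% (14.2 to 22.2), against 5.96% and 4.38% in epidermis-like cells, the lowest in DMSO of the classes with at least 50 cells. Whether the 3 dpf and 6 dpf differences differ was not tested.

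Within the class the clusters went opposite ways for bcl2l10. In the cytokine cluster led by tnfa, il1b and cxcl11.1 (B7, 48 and 37 cells) it had 346 UMIs or 542 CPM in DMSO and 378 UMIs or 1026 CPM in ALK5i, 0.92 (0.71 to 1.14), the highest levels of any macrophage-like cluster. In the dividing cluster led by ube2c, cdk1 and mad2l1 (B9, 28 and 33 cells) it had 226 and 91.3 CPM, -1.31 (-1.82 to -0.82). How its UMIs were spread over the few cells of B9 was not examined, and the interval does not cover that spread. Of the 10 clusters 7 were higher in ALK5i. Without the tnfa-led cluster, a setting chosen after the data were seen, the class was at 178 and 175 CPM, -0.02 (-0.17 to 0.13). The lower cluster B9 stayed in, and no setting without B9 was run.

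In the tnfa-led cluster cells with 3 or more of its UMIs numbered 26 of 48 and 28 of 37 and held 96.0% and 99.2% of them, with up to 44 and 56 in a single cell. Across macrophage-like cells at 6 dpf 124 of 547 and 102 of 379 cells had 3 or more and held 82.3% and 85.1% of the UMIs, at a greater depth than at 3 dpf.

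The BH3-only gene bcl2l11 was at 36.0 CPM in DMSO and 55.9 CPM in ALK5i in macrophage-like cells at 6 dpf, on 219 and 208 UMIs, 0.63 (0.35 to 0.91). It was higher in ALK5i in 9 of 10 clusters, the exception being the il1fma-led B6 at 38.5 and 36.5 CPM. In the ferritin- and marco-led B3, of 63 and 31 cells, it reached 64.3 and 163 CPM, 1.34 (0.68 to 2.0). Single cells of the class held up to 9 and 12 bcl2l11 UMIs, and their spread over the cells of B3 was not examined. Within single macrophage-like clusters between 23.8% and 39.5% of features were past 1.5-fold. The baxa feature ENSDARG00000020623 was at 63.0 and 66.6 CPM, 0.08 (-0.15 to 0.32), and bbc3 had 18 and 13 UMIs.

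The 6 dpf macrophage-like cells also differed in stress genes: the dissociation stress list summed to 11058 CPM in DMSO and 17578 CPM in ALK5i, and 10 of its 19 tested genes were past 1.5-fold higher, among them the heat shock genes hsp70.1 at 1.56 and hspb1 at 0.83. Liver and intestine markers summed to 100 and 216 CPM in the same cells. The part of either in the member differences was not tested.

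**Figure D5:**
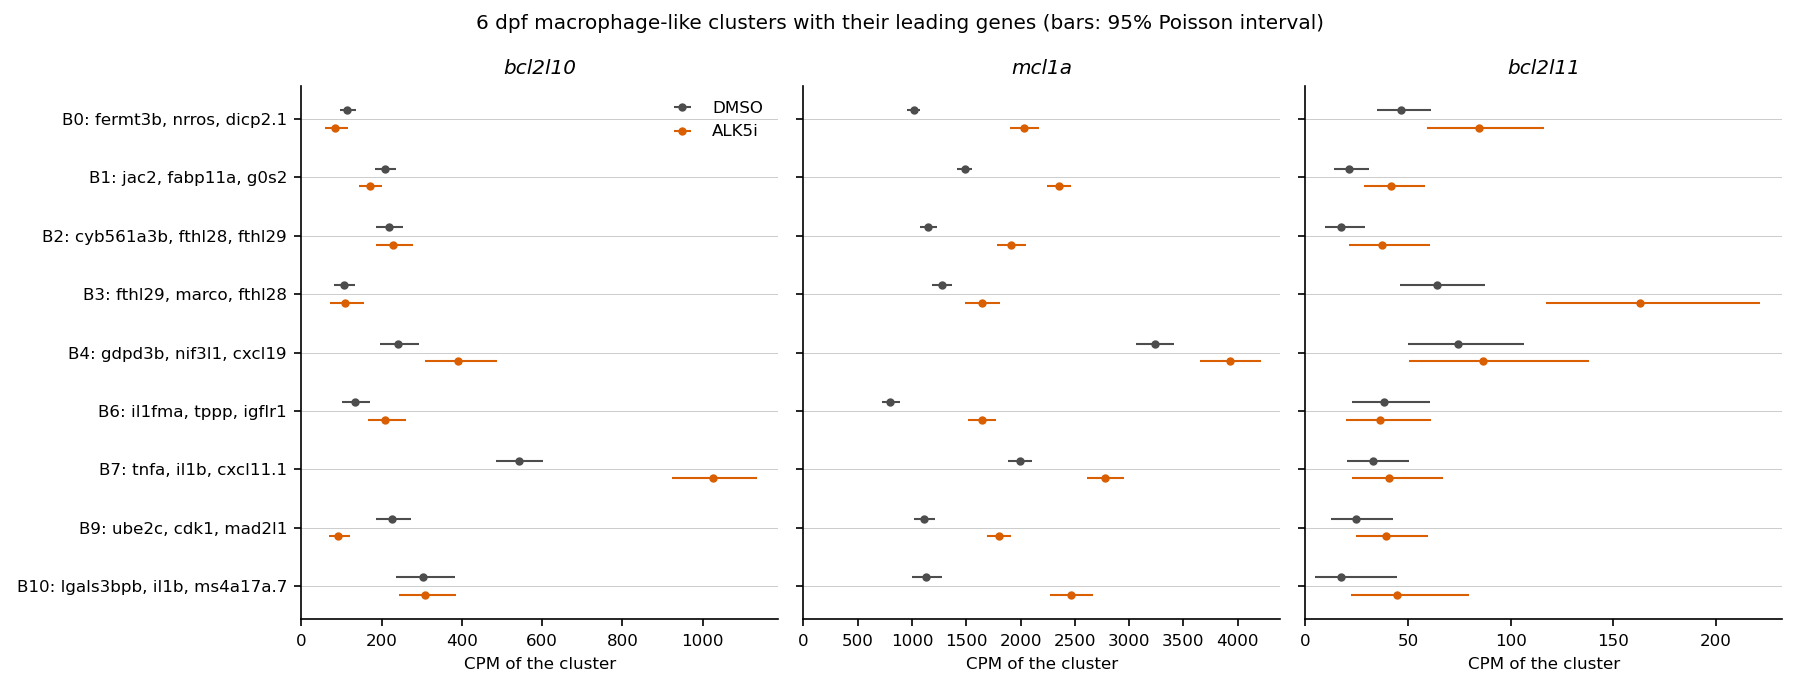
Level of bcl2l10, mcl1a and bcl2l11 in 9 macrophage-like clusters at 6 dpf, in CPM of the cluster on linear axes, with 95% exact Poisson intervals and leading genes; cluster B13, of 7 and 4 cells, is left out. For bcl2l10 the tnfa-led cluster B7 is higher in ALK5i (542 and 1026 CPM) and the dividing cluster B9 lower (226 and 91.3 CPM), while mcl1a is to the right in ALK5i in every cluster shown.

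Over 21 classes with at least 50 cells in both libraries of a stage, unnamed blood-like cells at 3 dpf included and unnamed cells at 6 dpf left out, 27 of 146 member values were past 1.5-fold, in comparisons in which between 1.6% and 38.1% of features were. The pooled share of members lies within that range, so the count is not read as a result about the members. In endothelial-like cells at 3 dpf (127 and 59 cells; 35.8% of features past 1.5-fold) bcl2l10 was at 34.8 and 146 CPM, 2.07 (0.98 to 3.19), on 14 and 18 UMIs, and bcl2l1 at 59.6 and 8.14 CPM on 24 UMIs and 1 UMI. In cartilage-like cells (27.3% of features) bcl2l10 was at 140 and 256 CPM, 0.88 (0.29 to 1.45). In lymphoid-like cells at 3 dpf, with 1489 and 1109 cells, 0 of 8 members were past 1.5-fold, beside 6.48% of features.

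At 6 dpf the liver- and intestine-like cells, 109 and 52 of them, had the highest bbc3 of the 6 dpf classes, at 96.9 and 163 CPM, 0.75 (0.50 to 1.0), and bcl2l10 at 150 and 324 CPM, 1.11 (0.93 to 1.30), where 26.7% of features were past 1.5-fold and the median feature differed by 0.22. Cells with 3 or more UMIs, 14 and 13 of them, held 95.2% and 96.7% of the bbc3 UMIs. For bcl2l10, 28 and 19 such cells held 87.9% and 97.9% of the UMIs, with up to 100 and 110 in 1 cell. A bcl2l10 UMI was seen in 68 of 109 and 26 of 52 cells, so its interval understates the spread between cells. In the 37 and 42 lymphoid-like cells bcl2l10 had 18 and 219 UMIs, 83.9 and 759 CPM, 3.18 (2.48 to 3.96), seen in 9 and 22 cells with at most 4 and 38 UMIs in 1 cell. Macrophage markers, 12 and 8 of 22 of them at 0, summed to 830 and 6679 CPM in those cells, and 48.1% of features were past 1.5-fold; their part in the bcl2l10 difference was not tested.

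Other genes of the apoptosis pathway were taken from 8 lists of 67 features. At 3 dpf 0 of 44 tested in HSPC-like cells and 0 of 45 in macrophage-like cells were past 1.5-fold, beside 2.56% and 3.4% of all features. This includes 10 p53 pathway genes in HSPC-like cells and 12 in macrophage-like cells, with list medians of -0.06 and -0.20. The regulators of BH3-only genes under stress, such as ddit3 and the foxo genes, had medians of -0.16 and -0.28 in those classes. By their intervals 5 of 7 of them in macrophage-like cells were below 0 and 1 above. Other lists were alike there, with 7 of 12 p53 pathway genes below 0 and 2 above, and 5 of 6 mitochondrial partner genes below and 0 above. Of 6 other BH3-only genes 1 was below and 3 above. The share of all features below 0 by interval was not counted. In macrophage-like cells at 6 dpf 3 of 42 genes were past 1.5-fold, a share no larger than the 9.13% of all features, and are named as a description. The survivin gene birc5a, also a mitotic gene, was at 11.8 and 28.0 CPM, 1.24 (0.79 to 1.69), and the stress-induced sestrin gene sesn1 at 7.73 and 17.7 CPM, 1.2 (0.64 to 1.77). The caspase inhibitor gene birc7 was lower, at 14.5 and 8.60 CPM, -0.75 (-1.38 to -0.15).

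Across the 36 clusters of at least 50 cells at 3 dpf, the MCL1 copies were the most alike of the 9 features, and their Pearson correlation of log2(CPM + 5) was 0.76. The correlation of bcl2l11 with bcl2l10 was 0.31. Those of bcl2a with mcl1a (-0.33), mcl1b (-0.25), baxa (ENSDARG00000020623, -0.14) and bcl2l10 (-0.12) were negative, as was that of bcl2l1 with the same baxa feature (-0.11). The features most like bcl2l11 were fam83hb (0.78), bzw1b (0.78) and ccnl1b (0.77), and those most like bcl2l10 were lrrfip2 (0.81), ube2a (0.78) and BX465862.4 (0.78). The clusters share libraries and differ in depth, so these values are descriptions.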

How the data were processed

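The authors deposited counts, UMIs per feature and barcode from 10x Genomics 3′ libraries, produced by Cell Ranger, version 9.0.0 per the file headers (9.0.1 and the GRCz11 build per the submitters' processing notes); the annotation release and cell-calling settings are not given in the sources used here. From the counts CPM were computed here over the summed UMIs of each class and library. Barcodes were kept with at least 500 UMIs, 300 genes and at most 10% mitochondrial UMIs, and Scrublet calls were removed: 2763 and 1930 at 3 dpf, 4 and 5 at 6 dpf. The libraries held 97212191, 60001771, 20481201 and 12121332 UMIs in order of 3 dpf DMSO, 3 dpf ALK5i, 6 dpf DMSO and 6 dpf ALK5i. Both libraries of a stage entered 1 clustering on 2000 variable genes, the members and pathway lists left out, with 30 components, 15 neighbours and Leiden resolution 1, and blood-like clusters once more on their own (scanpy 1.11.5, leidenalg 0.10.2, scipy 1.17.1, Python 3.11.15).

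Of 282 marker symbols in 22 classes 270 matched. A cluster took the class with most markers (seen in at least 10% of cells, at least 1.5-fold above the rest), given at least 3, and ties of HSPC with lymphoid markers were settled within blood; some naming conditions followed a look at the clusters. Levels have exact Poisson intervals and ratios exact conditional binomial ones, at 95%, and the ratio code was tested on simulated data. No test was run, since each group has 1 library. The members, the gene lists and the rule for naming genes were chosen with earlier results of these data known. All members are named; other pathway genes are named, up to 10 a comparison by size, when past 1.5-fold with an interval without 0, and like genes are the 3 highest correlations for bcl2l11 and bcl2l10. The 2 heat shock examples, the leading clusters and the classes other than HSPC- and macrophage-like ones were picked after their values were seen.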

Additional observations from a re-analysis of the deposited data

Results flagged for a closer look

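Some members went opposite ways in different cells of a stage, with counting intervals that leave out 0 on both sides; the differences between these differences were not tested. At 3 dpf bcl2l11 was higher in ALK5i in liver- and intestine-like cells, by 1.67 on the log2 scale (12 and 21 UMIs), and lower in neural progenitor- and glia-like cells, by -0.72 (64 and 41 UMIs). At 3 dpf bcl2a was higher in macrophage-like cells, by 0.72, and lower in muscle-like cells, by -1.56 on 20 and 5 UMIs. Among 3 dpf macrophage-like clusters bcl2l1 was higher in B14, by 1.05 (18 and 25 UMIs), and lower in the spsb3a- and nrbp2b-led B13, by -0.98 (38 and 12 UMIs). At 6 dpf bcl2l10 was higher in the tnfa-led cluster B7, by 0.92, and lower in the dividing cluster B9, by -1.31. Each pair is the largest and the smallest such value of its member. Of all features, 33.6% were past 1.5-fold in the liver- and intestine-like, 21.5% in the neural progenitor- and glia-like and 27.1% in the muscle-like cells. The share was 3.4% in 3 dpf macrophage-like cells, 17.7% in B14 and 19.5% in B13. In B7 and B9 at 6 dpf it was 26.2% and 27.7%.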

How the results depend on the processing

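Alternatives gave 233 values for 33 results. Of the values that answer a comparison 51 stayed within counting error or, for counts, within 1.5 times, and 12 moved; of the others 155 stayed and 15 moved. In all, 0 reversed a called direction. Only log2 ratios past 1.5-fold in the main setting could do so, which leaves out counts, shares, bcl2l11 in HSPC-like cells and bcl2l10 at 6 dpf. For bcl2l10 in 3 dpf macrophage-like cells the values ran from 1.11 to 1.22, past 1.5-fold in each. For bcl2l11 in HSPC-like cells the marker gate gave 0.67 and clusters with HSPC markers first or tied 0.51, and the gate took the number of HSPC-like members past 1.5-fold from 0 to 1. For bcl2l10 in 6 dpf macrophage-like cells leaving out the tnfa-led cluster gave -0.020. The 3 members past 1.5-fold there became 1 with 5 CPM added and 0 with the gate. Among the 3 dpf macrophage-like members, bcl2a fell within 1.5-fold with the gate, with 5 CPM added and with doublet calls kept. The loss of 1 member from a count of 3 is labelled as stayed by the rule for counts. Unthinned shares of cells with a UMI were 16.2% and 12.8% for bcl2l11 in HSPC-like cells, and 9.17%, 13.3%, 54.7% and 54.6% for bcl2l10 in macrophage-like cells at 3 and 6 dpf, against thinned shares of 5.16%, 5.29%, 3.71%, 7.55%, 14.6% and 18.0%. The share of all features past 1.5-fold rose without the count filter to 39.1% (HSPC-like), 32.7% and 51.0% (macrophage-like, 3 and 6 dpf), and was 1.05%, 1.89% and 5.19% with 5 CPM added; in HSPC-like cells it was 6.54% with the gate and 3.93% at resolution 0.5. Settings that leave out the tnfa-led or microglia-like clusters, or add tied clusters, were chosen after seeing the data. No paired analysis was possible because each group has 1 library. In HSPC- and macrophage-like cells bbc3, the second baxa feature and, at 6 dpf, bcl2a had a mean under 10 CPM and were not called. Depth limits the small classes and clusters, where single members rest on few UMIs.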
